A study of Homo sapiens and Mus musculus with 7 samples.

Results

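The genes described here are 9 neighbours of Fas on mouse chromosome 19, chosen as genes within about 2 Mb of it: Minpp1, Papss2, Atad1, Stambpl1, Acta2, Ch25h, Lipa, Pank1 and Kif20b. They are 9 of the 18193 mouse genes with a probe set annotated to a single symbol, and 28 probe sets measured them. The rule used position and name and no measured value, although the set was proposed with earlier results of these data known. Expression was measured on Affymetrix arrays from total RNA of 1 liver that the labels call Fas knock-out (KO) and of 1 wild-type (WT) liver, each from a male of strain C57/BL6 at 2 months of age. The labels do not say how the altered allele was made, how much flanking DNA came with it or how the strain was bred. The series also holds 5 arrays of human cancer cell lines, the ovarian line HeyA8 with the FAS hairpin shRNA4, the hairpin shRNA6 or the control vector PLKO, and the liver line HepG2 with shRNA6 or PLKO.

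Fas is a cell surface receptor of the tumour necrosis factor receptor family that can start apoptosis, and hepatocytes are among the cells that carry it. When a gene is altered in the germ line, neighbouring genes stay linked to it through breeding, and an inserted or deleted stretch can also touch regulatory DNA that neighbours use. The question here was therefore whether genes beside Fas differed between the KO and the WT liver. The neighbours have little in common beyond their position. They include enzymes of sulfate, inositol phosphate, sterol, lipid and coenzyme A metabolism, a membrane protein extractor, a deubiquitinating enzyme, a contractile actin and a mitotic motor.

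Each group had 1 array, so no difference between the livers has a replicate check, no p-value was computed for mouse genes, and differences are given by size. The unit is the MAS5 signal, a brightness in arbitrary units, with array medians of 75.2 in the KO and 79.9 in the WT liver. Differences are log2 ratios, KO over WT, of signal plus a pseudocount of 20.5, which understates the differences of dim probe sets. A probe set was kept when it was above the array median on at least 1 of the 2 arrays, and is called bright when it was above the 75th percentile on at least 1. The liver label held: all 13 hepatocyte markers on the array, among them the albumin and transthyretin genes Alb and Ttr, were bright in these livers. In bulk tissue, fewer cells of a type and less RNA per cell cannot be told apart.

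Fas itself was lower in the KO liver. The single Fas probe set read 169 in the KO liver, against 560 in the WT liver, a log2 ratio of -1.61, so 30.3% of the WT signal was left. Of the 500 kept probe sets nearest to it in mean signal, itself included, 0.4% differed by at least as much. Whether this probe set reads the altered stretch or another part of Fas is not stated in the labels.

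None of the neighbours stood near that size. Of the 28 member probe sets 18 were kept, from 8 of the 9 genes, and 13 were bright. No kept probe set differed by 2-fold (0 of 18), where 5.4% of all 24445 kept probe sets did, and 0 of the 13 bright ones, where 0.756% of all 11768 bright probe sets did. With shares this low in the whole table, counts of 0 at 2-fold are close to the background. At a threshold of 1.5-fold the count was 0 of 18 as well, with 15.3% among all kept probe sets and 4.18% among all bright ones. That 0 depended on the pseudocount and the scaling. A Papss2 probe set passed 1.5-fold without a pseudocount (KO at 150.1% of WT), with quantile normalization (0.62) and with equal array medians (0.65). Log2 ratios of the kept member probe sets ran between -0.25 and 0.57, and 17 of 18 lay within 1.2-fold. They were split in direction, 8 above 0 and 10 below, with a median of -0.02, beside 53.8% below 0 and a median of -0.03 over all kept probe sets. The median size of the difference, without its sign, was 0.10 for kept member probe sets and 0.20 for all kept ones, and 0.07 for bright member probe sets and 0.13 for all bright ones.

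**Figure D1:**
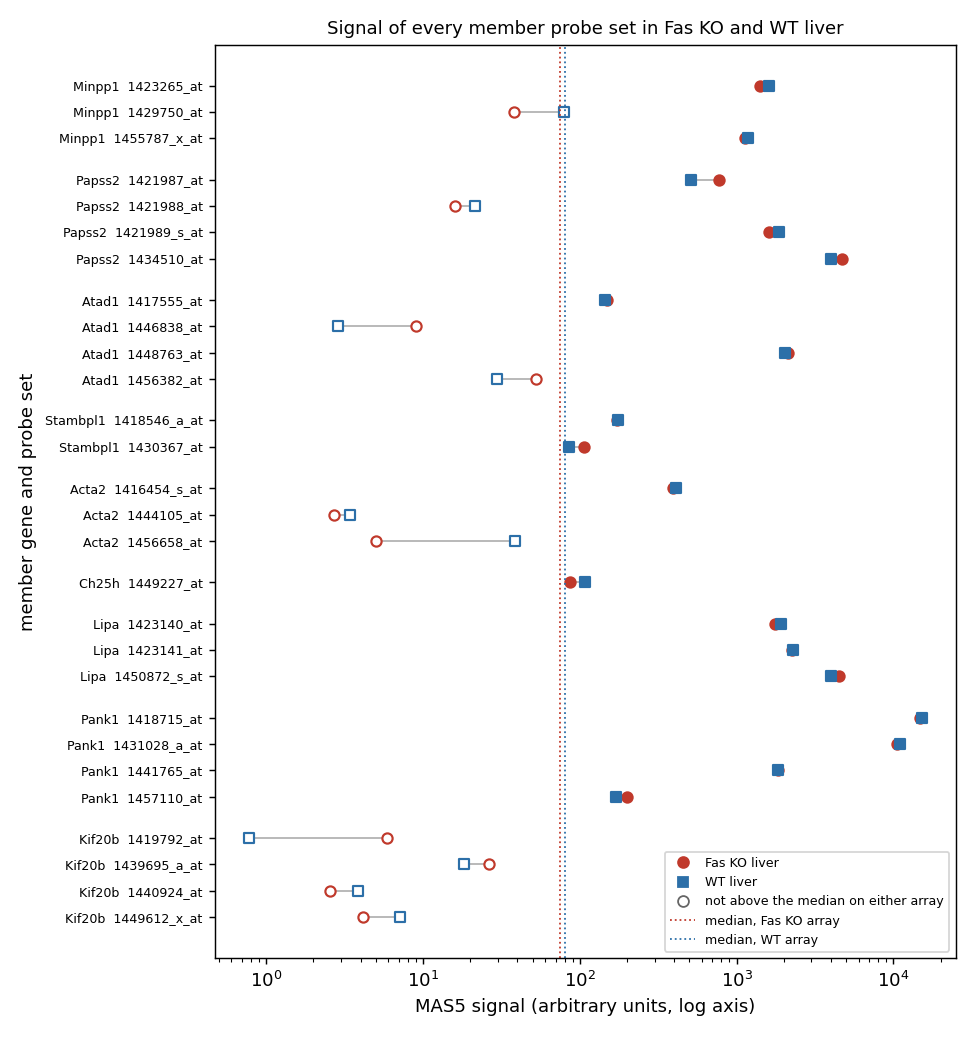
Signals of all 28 member probe sets (horizontal log axis, MAS5 signal in arbitrary units) in the Fas KO liver (circles) and the WT liver (squares), with dotted lines at the array medians and open symbols for probe sets not above the median on either array. The symbols of the 18 kept probe sets nearly coincide, with the widest gap at a Papss2 probe set, 768 in KO and 512 in WT, and the wide gaps lie at dim probe sets.

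Minpp1 encodes a phosphatase that removes phosphates from inositol polyphosphates. Its brighter probe set gave 1412 in the KO liver and 1612 in the WT liver, a log2 ratio of -0.19. A further one, of a design that can cross-hybridise, gave 1134 in KO and 1185 in WT, a log2 ratio of -0.06. A dim probe set, 38.3 in KO and 79.7 in WT, was below both medians and was not kept. Both kept probe sets were thus slightly lower in the KO liver.

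Papss2 makes PAPS, the sulfate donor of sulfotransferases, and was the neighbour whose kept probe sets disagreed most. The probe set with the largest difference of all kept member probe sets gave 768 in the KO liver and 512 in the WT liver, a log2 ratio of 0.57. The most intense gave 4701 in KO and 4003 in WT, a ratio of 0.23. A further one went the other way, with 1602 in KO and 1849 in WT, at -0.20. The range over these 3 bright probe sets was 0.77, beside a median range of 0.18 over the 2449 genes with at least 2 bright probe sets, and 2.37% of those genes had a range at least as wide. Those genes were not matched for the number of probe sets, and a range over 3 tends to be wider than one over 2. Of the 500 kept probe sets nearest in mean signal to the 0.57 one, 5% differed by as much or more, and their 95th percentile was 0.39. The largest difference among the neighbours thus depended on the probe set. The remaining Papss2 probe set, at 16.1 in KO and 21.5 in WT, was not kept.

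Atad1 encodes an AAA ATPase that pulls mislocalised tail-anchored proteins out of the outer mitochondrial membrane. Its bright probe set gave 2124 in the KO liver and 2028 in the WT liver, a log2 ratio of 0.07, and the other kept one gave 149 in KO and 146 in WT, a ratio of 0.03. The 2 dim probe sets, at 9.05 and 52.8 in KO and 2.89 and 29.7 in WT, were not kept. Stambpl1, a deubiquitinating enzyme related to the endosomal enzyme Stambp, was measured by 2 probe sets below the bright range. They gave 171 in KO against 175 in WT, and 106 in KO against 85.5 in WT, log2 ratios of -0.03 and 0.25. The signs of Stambpl1 therefore differed between its probe sets.

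Acta2, the actin of smooth muscle and of activated hepatic stellate cells, is the gene next to Fas. Its 1 kept probe set gave 395 in the KO liver and 408 in the WT liver, a log2 ratio of -0.05. A dim probe set was near the bottom of the scale on both arrays, with 2.69 in KO and 3.43 in WT. Another dim one had 4.997 in KO and 38.6 in WT, at signals below both array medians. With the pseudocount, its log2 ratio of -1.21 was the only member ratio past 2-fold. Without it, dim probe sets of Minpp1 (KO at 48.0% of WT), Atad1 (313.3%) and Kif20b (756.8%), none of them kept, were past 2-fold as well. In the human RefSeq annotation (GRCh38.p14) an ACTA2 start and a FAS start face away from each other, 94 bases apart. The windows from 250 bases before to 50 after these starts share 193 bases, and both are shown because these starts lie this close together. They were picked as the FAS and ACTA2 windows with the largest overlap. Other starts are annotated too, with an ACTA2 window at chr10:88952724-88953023 and FAS windows at chr10:88990548-88990847 and chr10:88990664-88990963. The human windows shown stand in for the mouse locus, whose sequence was not used here, and capitals mark the shared bases.
FAS, chr10:88991181-88991480, plus strand: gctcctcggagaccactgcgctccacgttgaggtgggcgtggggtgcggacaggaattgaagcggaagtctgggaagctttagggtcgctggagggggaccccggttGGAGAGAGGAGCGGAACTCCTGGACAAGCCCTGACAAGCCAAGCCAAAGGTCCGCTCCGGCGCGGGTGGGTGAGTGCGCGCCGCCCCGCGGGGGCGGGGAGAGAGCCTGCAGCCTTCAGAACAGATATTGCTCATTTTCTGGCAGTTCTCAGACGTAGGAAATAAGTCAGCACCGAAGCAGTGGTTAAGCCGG
ACTA2, chr10:88991288-88991587, minus strand: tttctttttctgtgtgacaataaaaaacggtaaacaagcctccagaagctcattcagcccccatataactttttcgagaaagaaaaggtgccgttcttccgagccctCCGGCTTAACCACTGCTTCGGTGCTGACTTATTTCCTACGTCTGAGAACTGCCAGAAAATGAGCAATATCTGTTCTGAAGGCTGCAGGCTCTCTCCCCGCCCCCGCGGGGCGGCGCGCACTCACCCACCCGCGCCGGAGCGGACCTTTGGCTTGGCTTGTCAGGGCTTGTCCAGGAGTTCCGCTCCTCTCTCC

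On the mouse arrays the Fas probe set stood at -1.61 and the kept Acta2 probe set at -0.05. Genes of stellate and smooth muscle cells were read beside Acta2. Of 14 listed genes 10 were kept, 3 above 0 and 7 below, with a median log2 ratio of -0.13 and none past 2-fold, where 4.34% of 12047 kept genes were. The intermediate filament gene Des was at 92.8 in KO and 57.6 in WT, a ratio of 0.54, the collagen gene Col3a1 at -0.33 and the growth factor receptor gene Pdgfrb at -0.31. Des was above the median only in the KO liver, and was kept only through it. Signals of all 14 listed genes, those not kept included, summed to 18967 in the KO liver and 20903 in the WT liver. The part of stellate and smooth muscle cells in the Acta2 value was not tested.

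Ch25h, the enzyme that makes 25-hydroxycholesterol and is known as an interferon-induced gene of macrophages, was dim. Its only probe set gave 87.1 in the KO liver and 108 in the WT liver, a log2 ratio of -0.25, the lowest of the kept member ratios. Among the 500 kept probe sets nearest in mean signal, 55.2% differed by at least as much. Lipa, the acid lipase that hydrolyses cholesteryl esters and triglycerides in lysosomes, had 3 bright probe sets. They gave 4523 in KO against 4001 in WT, 2260 in KO against 2290 in WT, and 1762 in KO against 1924 in WT, log2 ratios of 0.18, -0.02 and -0.13. Around 0, these values show no common direction for Lipa.

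Pank1, the kinase of the first step of coenzyme A synthesis, had 4 kept probe sets, 3 of them bright. Its most intense probe set stood at 14801 in the KO liver and 15175 in the WT liver, a log2 ratio of -0.04. The other 2 bright ones gave 10593 in KO against 11041 in WT and 1837 in KO against 1835 in WT, ratios of -0.06 and 0.00, and the dimmest gave 201 in KO against 170 in WT, a ratio of 0.22. The SD over its 3 bright probe sets was 0.03. Kif20b, a kinesin of cell division, was below the median at all 4 probe sets on both arrays. The most intense of these gave 26.4 in KO and 18.2 in WT, the others between 2.55 and 5.88 in KO and between 0.78 and 7.10 in WT. No difference in Kif20b could be read at this brightness.

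**Figure D2:**
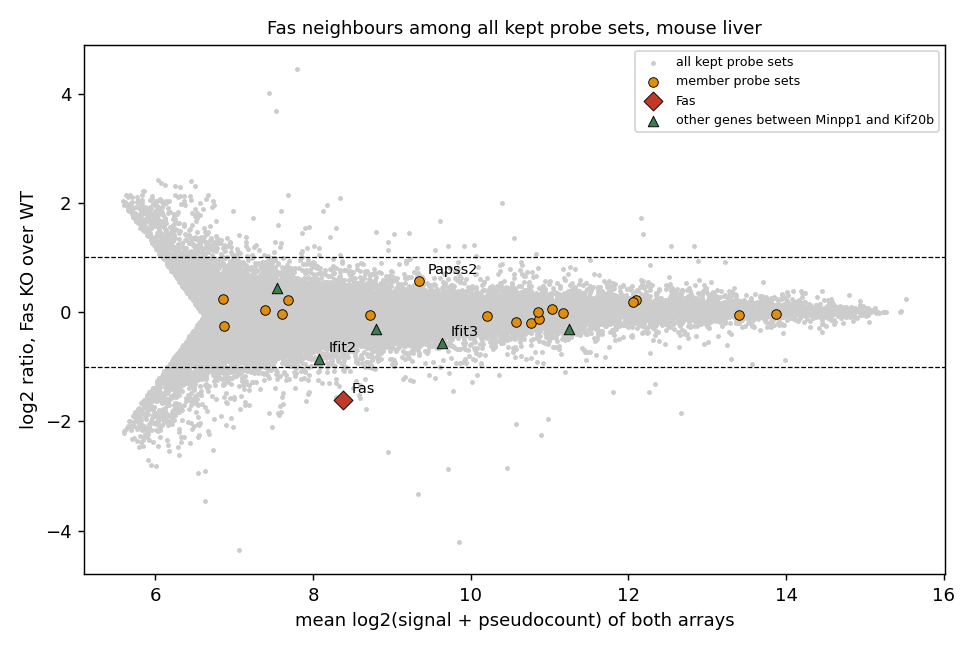
Log2 ratio, Fas KO over WT, against the mean log2(signal + pseudocount) of both livers for all kept probe sets (grey), with kept member probe sets (circles), Fas (diamond) and other genes of the interval (triangles); dashed lines mark 2-fold. The 18 member probe sets lie between -0.25 and 0.57 inside the grey cloud, while Fas lies at -1.61.

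Genes that work in the same pathways as the neighbours were counted from lists made by pathway, with 1 probe set per gene. Over all kept genes 52.7% were below 0. In inositol phosphate metabolism, the setting of Minpp1, 13 of 13 genes were kept, 7 above and 6 below 0, with a median of 0.01. Its largest differences were in the inositol trisphosphate kinase genes Itpkc (26.7 in KO and 202 in WT, -2.24) and Itpka (0.64) and the inositol hexakisphosphate kinase gene Ip6k2 (0.62). Itpkc was above the median only in the WT liver and Itpka only in the KO liver, so each was kept only through the liver where it was high. Of the sulfation list 10 of 11 genes were kept, 5 in each direction, with a median of 0.02. The sulfotransferase gene Ust was at -0.60, the other PAPS synthase gene Papss1 at -0.25 and the sulfate transporter gene Slc26a1 at 0.24. Neither list thus moved to one side.

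For Atad1, 9 genes of tail-anchored protein handling had a median of 0.07, 7 above 0, led by the peroxisomal receptor gene Pex19 (0.36), the segregase gene Vcp (0.21) and Get3 (0.13), which delivers such proteins. For Stambpl1, 7 endosomal sorting genes had a median of 0.06, 6 above 0, with Stam2 at 0.30, Hgs at 0.24 and Stam at -0.16. For Pank1, 6 coenzyme A genes had a median of -0.06, with Pank4 at -0.40, Pank2 at 0.37 and the synthase gene Coasy at 0.14. None of these 3 lists held a gene past 2-fold, where 4.34% of all kept genes were, and counts of 0 in lists this short are close to that share.

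For Lipa, 12 lysosomal lipid genes had a median of -0.06, 10 of them below 0, with the lysosomal regulator gene Tfeb at -0.86 (35.1 in KO and 80.2 in WT), the esterase gene Nceh1 at -0.28 and the cholesterol exporter gene Npc1 at -0.25. Several of those below 0 were nearer to 0 than 0.09, the largest shift of member ratios when arrays were scaled to equal medians. The list was not recounted under that scaling. For Ch25h, 12 oxysterol genes had a median of 0.11, 9 of them above 0. Gpr183, a receptor for an oxysterol made from the Ch25h product, was at 60.3 in KO and 136 in WT, a log2 ratio of -0.95, while Insig1, which holds back sterol synthesis, was at 0.43 and Hsd3b7, of bile acid synthesis, at 0.39. Neither list had a gene past 2-fold, where 4.34% of all kept genes were, and counts of 0 in lists this short are close to that share. Tfeb and Gpr183 were kept only through the WT liver, where they were high. Macrophage markers lay mostly below 0, 10 of 13, with a median of -0.14, a sum of 29783 in KO against 34137 in WT, Cd68 at -0.49, Csf1r at -0.48 and Lyz2 at -0.33. The part of macrophages in the Lipa and Ch25h values was not tested. Of 13 lymphocyte markers 5 were kept, with a median of -0.19. Signals of all 13, those not kept included, summed to 1285 in KO and 1417 in WT. Among the 5 kept markers Ncr1, kept only through the KO liver, was at 0.90, Jchain at -0.41 and Ptprc at -0.29.

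For Kif20b, 19 mitosis genes were on the array, of which 11 were kept and 0 were bright, with 6 above and 5 below 0 and a median of 0.13. Past 2-fold were Kif4 (168 in KO and 26.7 in WT, 1.99), Mki67 (113 in KO and 41.7 in WT, 1.10) and Nusap1 (10.8 in KO and 94.4 in WT, -1.87), 2 higher and 1 lower in the KO liver, where 4.34% of all kept genes passed 2-fold. Each was above the median on 1 array and below it on the other, so it was kept only through the liver where it was high.

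**Figure D3:**
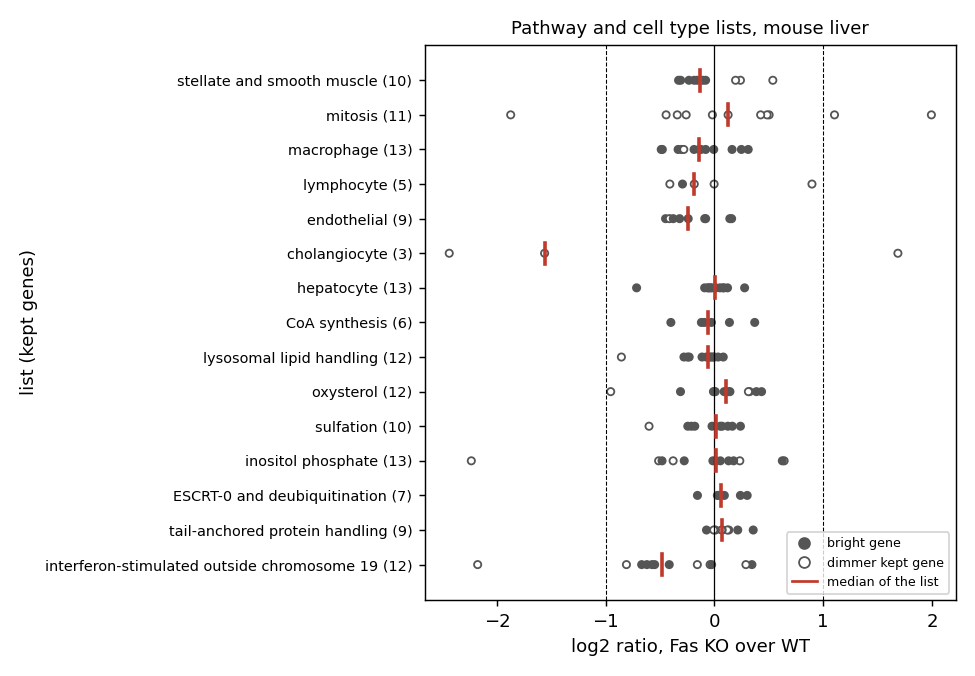
Log2 ratio, Fas KO over WT, of the kept genes of each list (filled, bright; open, dimmer), with the list median as a bar and dashed lines at 2-fold. Pathway lists of the neighbours have medians between -0.06 (lysosomal lipid and coenzyme A genes) and 0.13 (mitosis), the stellate and smooth muscle list lies at -0.13, and the interferon-stimulated list lies at -0.48. The bile duct (cholangiocyte) list lies lowest, at -1.56 over 3 kept genes, none of them bright, and the endothelial list lies at -0.24.

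Other genes lie among the members. The human annotation places 26 protein-coding genes from MINPP1 to KIF20B, and 20 of them had a mouse gene of the same symbol on the array; the rest were not analysed here. Beside the 9 members and Fas these were 10 genes, 5 of them kept. The order is that of the human genes and was not checked on the mouse chromosome. Slc16a12, a monocarboxylate transporter family member, gave 2174 in the KO liver and 2690 in the WT liver, a log2 ratio of -0.30. Rnls, which encodes renalase, gave 197 in KO and 139 in WT, a ratio of 0.45. The lipase genes Lipf, Lipk, Lipn and Lipm and the gene Ankrd22 were below the median on both arrays and give no difference that can be read.

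The other 3 kept genes were Ifit genes, which encode interferon-induced proteins that act against viruses, and all 3 were lower in the KO liver. Ifit2 gave 180 in KO and 344 in WT, a log2 ratio of -0.86. Ifit3 gave 633 in KO and 944 in WT, a ratio of -0.56. Ifit1 gave 378 in KO and 475 in WT, a ratio of -0.32. None reached 2-fold, as was so for all 5 kept genes of this group, and 4.34% of all kept genes reached it. Of the 500 kept probe sets nearest in mean signal, 2.8% differed by as much as Ifit2, 3.6% as much as Ifit3 and 29.2% as much as Ifit1. Each has 1 probe set, so no second reading within the array was at hand. Interferon-stimulated genes on other chromosomes were read beside them: of 12 kept, 10 were below 0, with a median of -0.48, where the 3 Ifit genes had a median of -0.56. The RNA sensor gene Oas2 was at 27.3 in KO and 196 in WT, a ratio of -2.18, Stat2 at -0.81 and Irf7, the regulator of interferon genes, at 709 in KO and 1141 in WT, -0.67. Oas2 was kept only through the WT liver, where it was high.

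**Figure D4:**
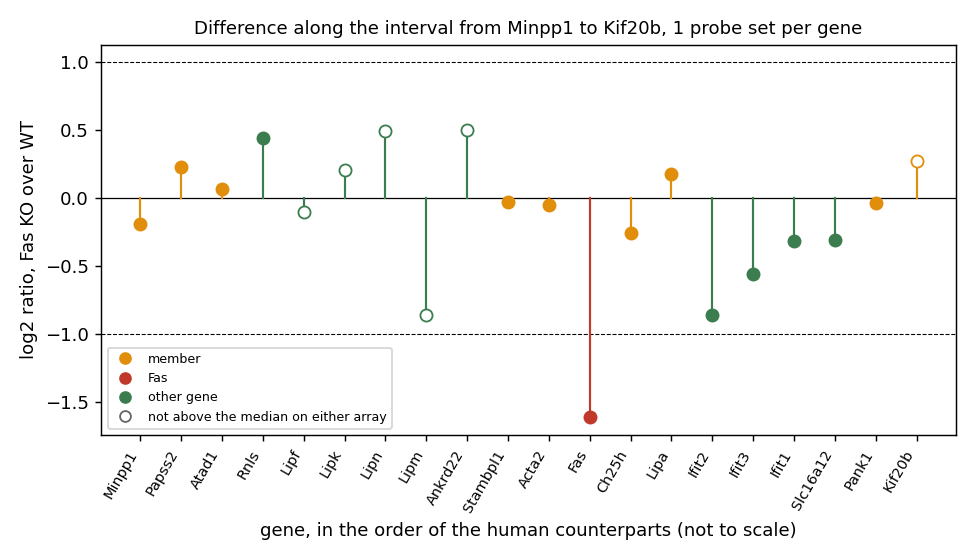
Log2 ratio, Fas KO over WT, for the 20 genes from Minpp1 to Kif20b, 1 probe set each, in the order of their human counterparts and not to scale (filled, kept; open, not above the median on either array). Fas stands at -1.61 between Acta2 at -0.05 and Ch25h at -0.25, and no kept gene of the interval but Fas passes the dashed lines at 2-fold.

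Promoter windows of the human counterparts were searched for letters known from interferon-induced and smooth muscle genes. The sequence GAAANNGAAA, the core of the interferon-stimulated response element, was searched on both strands. It was found in 1 of the 13 windows of 8 member counterparts, the ACTA2 window shown above, and in 3.57% of all 35116 windows. Each of the 2 IFIT3 windows and the IFIT1 window held 2 matches. The IFIT3 window below is shown for its matches, in capitals (read on the minus strand).
IFIT3, chr10:89327747-89328046, plus strand, GRCh38.p14: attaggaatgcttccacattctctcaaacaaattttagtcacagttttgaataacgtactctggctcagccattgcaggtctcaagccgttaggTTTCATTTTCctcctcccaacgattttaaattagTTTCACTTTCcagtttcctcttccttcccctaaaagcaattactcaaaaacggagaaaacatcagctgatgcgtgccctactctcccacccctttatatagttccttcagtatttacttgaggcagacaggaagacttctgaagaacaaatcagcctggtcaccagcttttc
The sequence TATAAA was in 1 of the 13 member windows and in 11.5% of all windows. The CArG box, bound by serum response factor in smooth muscle genes, was searched with a core of A or T only. This strict form was in 0 of 13 and in 1.29% of all. Variants with another letter in the core were not searched, so the 0 does not show that these windows lack them. A match is a description of these letters and not of binding.

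The human arrays measured the same 9 genes where FAS RNA was lowered by a hairpin, which leaves the locus itself in place. CH25H was too dim on each of the 5 arrays to pass the median filter, and was left out. The other 8 were fitted with limma over the 5 arrays, with the cell line as a term, among 13936 genes. For the common effect of the knockdown 0 of 8 passed an adjusted p of 0.05, as did 0 of all 13936 (0%), and 0 of 8 and 568 of 13936 had an unadjusted p below 0.05. Common effects ran between -0.26 for PAPSS2 and 0.24 for LIPA on the log2 scale, and both ends rested on the HepG2 shRNA6 array, without which they were 0.06 for PAPSS2 and -0.12 for LIPA. FAS was at -0.93 ± 0.17 (SE), with an adjusted p of 0.991 by limma. The fit has 2 residual degrees of freedom, which come from unlike hairpins and unlike cell lines, so its p-values measure the spread between these samples and not between repeats.

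At the probe set used for each gene, ACTA2 showed the only difference of 2-fold among the counterparts. Its signal was 2281 with shRNA4, 940 with shRNA6 and 997 in the HeyA8 control, log2 ratios of 1.18 and -0.08 against the same control array. A dim ACTA2 probe set read 26.0 with shRNA4 and 6.64 in that control, a ratio of 1.01. In HepG2 it was 2348 with shRNA6 and 2742 in the control, a ratio of -0.22. The value was therefore high on 1 of the 3 knockdown arrays, while FAS was low on all 3, at -0.82, -1.29 and -0.77 in the same order. The other kept FAS probe sets were below 0 on all 3 too. They lay between -1.99 and -0.94 in HeyA8 and between -1.14 and -0.76 in HepG2. The common ACTA2 effect was 0.22 ± 0.34 (SE), which did not pass by limma (adjusted p = 0.991), and was -0.15 without the HeyA8 shRNA4 array. At least 2-fold differences made up 6.69% of all genes with shRNA4 in HeyA8, 6.24% with shRNA6 in HeyA8 and 7.44% in HepG2, beside 1, 0 and 0 of the 8 counterparts.

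In HepG2 LIPA gave 8818 with shRNA6, against 5293 with PLKO, a log2 ratio of 0.74, and at -0.28 with shRNA4 and 0.03 with shRNA6 in HeyA8. In a limma fit with an interaction term the knockdown effect in HepG2 minus that in HeyA8 was 0.86 for LIPA and -0.75 for PAPSS2, and neither passed (adjusted p = 0.999 for both; unadjusted p = 0.0178 and 0.0348). That fit passed 0 genes, with 613 at an unadjusted p below 0.05. Its 1 residual degree of freedom comes from the unlike hairpins in HeyA8, and the HepG2 arrays have no replicate, so the spread in HepG2 was not measured. PAPSS2 was strongly expressed in HeyA8, with 10738 with shRNA4, 11735 with shRNA6 and 10753 in the control. In HepG2 it was below the median, with 10.5 with shRNA6 and 24.5 in the control, and its ratio there, -0.68, is one of dim signals. The other kept PAPSS2 probe sets, as dim in HepG2, went the other way there. They gave 11.7 with shRNA6 against 1.49 in the control (0.79), and 18.3 against 13.4 (0.25). The sign of the PAPSS2 ratio in HepG2 thus depended on the probe set. At the probe set used for each, MINPP1, ATAD1, STAMBPL1, PANK1 and KIF20B lay between -0.14 and 0.26 in all 3 comparisons. A dimmer, cross-hybridising KIF20B probe set gave -1.001 with shRNA6 in HeyA8, at 56.9 against 126 in the control, and 0.997 with the same hairpin in HepG2, at 62.7 against 25.1 in the control. The signs of that probe set were thus opposite in the cell lines. ATAD1 had a second kept probe set, at 0.18 with shRNA4, and PANK1 was at most at 0.14. A second kept STAMBPL1 probe set was at -0.09 with shRNA4 and -0.20 with shRNA6 in HeyA8, and at 0.23 in HepG2. Its signs were opposite to those of the STAMBPL1 probe set used.

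**Figure D5:**
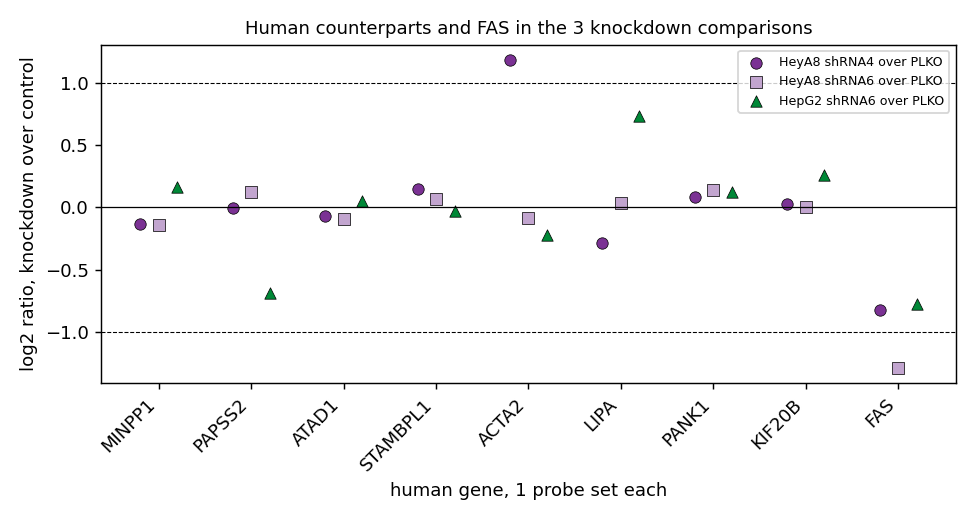
Log2 ratio, knockdown over PLKO control, for 8 human counterparts and FAS, 1 probe set each, in HeyA8 with shRNA4 (circles), HeyA8 with shRNA6 (squares) and HepG2 with shRNA6 (triangles); dashed lines mark 2-fold. FAS is below 0 in all 3 comparisons, ACTA2 is at 1.18 with shRNA4 alone, and both HeyA8 comparisons share their control array.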

How the data were processed

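Total RNA of 2 mouse livers and 5 human cell line samples was hybridised to Affymetrix arrays, 1 array per group. The authors deposited linear array intensities, which per the submitters' processing notes came from MAS5, with no version or settings stated. Trimmed means (2% from each end) were 496 on both mouse arrays, so arrays had been scaled as a whole. For arrays, their number limits the precision. Of 45037 mouse probe sets (64 control ones left out) 34945 had 1 gene symbol in the platform annotation, which can be old, 932 several and 9160 none, and the last 2 kinds named no gene.

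The pseudocount was the 25th percentile of each table, 20.5 in mouse and 12.6 in human. For each gene the probe set of highest mean signal was used, cross-hybridising ones (_x_at) only where there was no other. Human arrays were fitted with limma 3.58.1 in R 4.3.3 (trended prior variance, Benjamini-Hochberg adjustment), checked on simulated data; the interaction fit was added after seeing the data. Other steps used Python 3.11.15, numpy 2.4.6, pandas 2.3.3 and matplotlib 3.10.9. Promoter sequences are from RefSeq, GRCh38.p14, matched by symbol, with windows for 8 of 9 counterparts.

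All members were named at every probe set, as were Fas and the interval's other genes, with up to 3 genes of the largest difference per list. A planned ordering of genes along mouse chromosome 19 was not made, because no mouse annotation was used here; human gene order stood in for the interval. Members and lists were chosen with earlier results of these data known. Alternatives were other pseudocounts, scalings, filters, probe set rules and fold thresholds, and, in human, no variance trend and leaving out arrays.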

Additional observations from a re-analysis of the deposited data

How the results depend on the processing

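Of 9 alternatives for the count of member probe sets at least 2-fold different in mouse liver, 8 gave 0. No filter on low values, with the main pseudocount, gave 1, the dim Acta2 probe set. The 3-fold threshold and the filter at the 75th percentile, whose 13 probe sets are among the 18 kept, could only give 0. The doubled pseudocount could only give 0 as well, since it draws every ratio towards 0. The 1.5-fold count in these alternatives used the main pseudocount and scaling. The median over members, 1 probe set each, was -0.03 and ran between -0.04 and 0.05 over 9 alternatives, each within the 0.11 that is the median SD between bright probe sets of a gene, and 4 turned its sign. Equal medians shifted ratios by up to 0.09, so that 6 of 18 kept member probe sets, all nearer to 0 than this, changed sign, and quantile normalization turned 2. Direction counts of the pathway and cell type lists were not recomputed under other scalings, and genes near 0 in them could change sign as well. No alternative turned the chosen probe sets of Minpp1, Papss2, Atad1, Ch25h or Lipa. Of 70 values of single mouse members under alternatives, 2 moved by more than 0.11, both with the mean over kept probe sets, Stambpl1 at 0.11 and Lipa at 0.01. Other filters and the inclusion of _x_at probe sets could not move these values, since the chosen probe sets stayed the same. The median of all kept probe sets ran between -0.03 and 0.06. Ifit1, Ifit2 and Ifit3 stayed below 0 under both other scalings, at -0.23, -0.78 and -0.47 with equal medians. In human, 0 of 8 counterparts passed under all 7 alternatives, leaving out each knockdown array included, and the lowest adjusted p by limma was 0.886. In the main fit 0 of all 13936 genes passed, the targeted gene FAS included, so these counts of 0 say little of the counterparts. No paired analysis was possible because each group had 1 array. With 1 array per group the spread between animals was not measured, so no limit of detection can be given, and dim probe sets limit what can be said of Kif20b and Ch25h.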

Other observations

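Markers of other liver cells were read as well. Of 9 endothelial genes 7 were below 0 in the KO liver, with a median log2 ratio of -0.24, sums of 12013 in KO and 12545 in WT, and the largest differences in Lyve1 (-0.45), Pecam1 (-0.41) and Stab1 (-0.38). Of 5 bile duct genes 3 were kept and 0 were bright: Sox9 gave 10.3 in KO and 147 in WT (-2.44), Epcam 53.5 in KO and 198 in WT (-1.56) and Krt7 76.3 in KO and 9.55 in WT (1.69). All 3 passed 2-fold, where 4.34% of all kept genes did. Each was below the median in the other liver, so it was kept only through the liver where it was high. Hepatocyte markers had a median of 0.01 over 13 genes, with Ass1 at -0.72, Tat at 0.28 and Apob at 0.12. A more intense probe set, annotated Gm5424;Ass1 and so not assigned to 1 gene, went the other way, at 0.36.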
